A study of Sus scrofa with 2 samples.

Results

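The transcripts of 9 genes of epidermal growth factor (EGF) signalling were followed in somatic cells of pig antral follicles: the ligands AREG, EREG, BTC, TGFA and HBEGF, the receptors EGFR, ERBB2 and ERBB3, and the sheddase ADAM17. They were taken by name from the 22342 genes of the deposited list, 7 by symbol and 2 (BTC and ERBB3) through the Ensembl identifier under which the list carries them. The cells came from 2 follicles, AF75 and AF76, of 1 pubertal Landrace × Yorkshire gilt aged 210 days that had been injected with pregnant mare serum gonadotropin before its ovaries were collected. Both follicles were healthy and over 7 mm wide, and they differed in no treatment. They were punctured and flushed, the cumulus-oocyte complexes were pipetted in hyaluronidase, and each follicle gave 1 library of 10x Genomics 3' v3.1 single-cell RNA. Barcodes with 2000 to 5000 genes and under 7% mitochondrial unique molecular identifiers (UMIs) were kept, which left 9362 of 14289 in AF75 and 7843 of 15548 in AF76. With 1 library per follicle no test between follicles was possible, so intervals are 95% and cover counting error only.

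EGF-like ligands are made as membrane proteins, and cutting by a sheddase such as ADAM17 frees the part that binds a receptor of the ERBB family on the same or a neighbouring cell. In the ovulating follicle, luteinizing hormone is known to switch on AREG, EREG and BTC in mural granulosa cells, and these ligands act on EGFR in mural and cumulus cells. That relay is known for starting cumulus expansion, in which a hyaluronan matrix built with VCAN, TNFAIP6 and hyaluronan synthase spreads the cumulus, and for the resumption of meiosis in the oocyte.

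Of the 5 ligand genes, 3 lie together on chromosome 8 of Sscrofa11.1, beside EPGN, the gene of a further ligand, epigen. In RefSeq, EPGN spans chr8:70266867-70301250, EREG chr8:70351316-70372530 and AREG chr8:70417935-70428106, all on the plus strand, with 45.4 kb between the end of EREG and the start of AREG. BTC follows at chr8:70645721-70697538 on the minus strand, 217.6 kb beyond AREG. TGFA (chr3:71948232-72054257) and ADAM17 (chr3:126795513-126853995) share chromosome 3 but stand far apart. HBEGF lies at chr2:142102455-142115192, EGFR at chr9:139302410-139474632, ERBB2 at chr12:22591621-22621384 and ERBB3 at chr5:21474218-21495040.

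The 250 bases before the RefSeq start are shown for AREG, EREG and EPGN, because these genes lie near each other. A further reason is that EREG and EPGN were higher in the cells of cluster 0 richest in AREG than in those poorest in it. The windows cover chr8:70417685-70417934 for AREG, chr8:70351066-70351315 for EREG and chr8:70266617-70266866 for EPGN, all on the plus strand. The EREG window reaches into the long noncoding RNA gene LOC106504692 (chr8:70309427-70351197, minus strand), which lies between EPGN and EREG. Capitals mark the motifs searched on both strands: the cAMP response element (CRE) TGACGTCA, its half-site TGACG, the AP-1 motif TGANTCA, the GC box GGGCGG and the TATA box TATAAA.
AREG: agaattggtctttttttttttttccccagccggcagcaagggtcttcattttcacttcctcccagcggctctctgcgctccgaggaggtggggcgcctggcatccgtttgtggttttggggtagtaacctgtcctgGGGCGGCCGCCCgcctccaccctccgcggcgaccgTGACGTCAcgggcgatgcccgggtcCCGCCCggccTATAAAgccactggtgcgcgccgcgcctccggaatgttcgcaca
EREG: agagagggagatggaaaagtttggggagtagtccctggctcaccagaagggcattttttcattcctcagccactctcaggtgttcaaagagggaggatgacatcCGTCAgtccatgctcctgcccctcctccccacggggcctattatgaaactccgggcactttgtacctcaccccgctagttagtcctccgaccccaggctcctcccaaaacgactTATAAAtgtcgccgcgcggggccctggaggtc
EPGN: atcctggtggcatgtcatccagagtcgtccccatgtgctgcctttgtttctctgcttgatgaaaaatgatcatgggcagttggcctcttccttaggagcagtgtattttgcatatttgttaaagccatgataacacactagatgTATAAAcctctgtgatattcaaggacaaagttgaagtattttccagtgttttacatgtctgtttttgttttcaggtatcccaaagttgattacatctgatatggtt
AREG held the full CRE, starting at position -79 from the RefSeq start, and a TATA box at -44. EREG held 1 half-site and a TATA box at -32, and EPGN only a TATA box, at -106. Any full CRE also holds the half-site on both strands. Among 19527 protein-coding genes with a window of the same length, 1.70% held the full CRE, 19.6% the half-site, 5.25% the AP-1 motif, 45.9% the GC box and 9.76% the TATA box. A full CRE was in none of the windows of the other 8 members. A half-site was also in the window of TGFA, while HBEGF, EGFR and ADAM17 held several GC boxes and no other motif searched. GC boxes were in the windows of AREG (3), TGFA (4) and ERBB3 (1) too.

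The kept cells had medians of 11254.5 UMIs in AF75 and 13902 in AF76, and 18 of the barcodes kept occurred in both libraries (56 of those deposited). Of the 10 granulosa markers, 8 were in the gene list, and each follicle had UMIs of at least 7 of them in all cells. Clustering that left the members out gave 6 clusters, called by number. Cluster 0 held 6413 cells of AF75 and 5863 of AF76 and was led by TGFB3 and ENPP2. Cluster 1 held 2303 and 976, and its summed level of the cumulus markers VCAN, SHAS2 and TNFAIP6 was 8823 CPM (UMIs for each 1000000 UMIs of the group of cells) in AF75 but 1401 in AF76. Cluster 2 held 684 cells of AF76 and 2 of AF75, was led by DEFB1, contained 9 barcodes with immune markers, and had 6442 CPM of granulosa markers against 27729 in cluster 0 of AF76. Cluster 3 (455 and 121 cells) was led by TOP2A, cluster 4 (166 and 174) by ALDH1A2, and cluster 5 (23 and 25) by interferon genes. Barcodes with at least 20% of their UMIs from the globin gene HBB, 12 in AF75 and 46 in AF76, served to gauge free RNA. HBB made up 61.9% and 58.1% of their UMIs and stayed in the totals, so their CPM of other genes understate free RNA.

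AREG, amphiregulin, a ligand that luteinizing hormone induces in granulosa cells of several mammals, was detected in nearly every cell and was higher in AF76. Its summed level was 2776 CPM (2767 to 2786) in AF75 and 5321 CPM (5307 to 5335) in AF76, and 93.8% and 96.4% of cells had a UMI. In the HBB-rich barcodes, whose median depth was 1811.5 and 3602 UMIs, 41.7% and 67.4% had an AREG UMI and the level was 284 and 346 CPM. Clusters 0, 1, 3, 4 and 5 lay above that level in both follicles. In AF75 the clusters ran in the order 0 (3512 CPM), 5 (3060), 4 (1838), 3 (1477) and 1 (1042), with no neighbours overlapping in their counting intervals. In AF76 the order was 0 (5806 CPM), 5 (4913), 1 (4809), 3 (3595), 4 (3338) and 2, and only clusters 5 and 1 overlapped. AREG varied among cells far more than counting alone gives, and cluster 5 held only 23 and 25 cells. The counting intervals therefore do not settle the order of neighbouring clusters. The 240 CPM of AREG in cluster 2 was below the 346 CPM of the HBB-rich barcodes and is read as background. Cluster 0 held 86.4% of the AREG UMIs of AF75 and 84.7% of those of AF76, beside 68.3% and 77.7% of all UMIs.

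EREG, epiregulin, which binds EGFR and ERBB4, was placed differently in the 2 follicles. Its level was 29.3 CPM (28.3 to 30.3) in AF75 and 16.0 CPM (15.2 to 16.7) in AF76, with a UMI in 13.6% and 10.4% of cells. The HBB-rich barcodes held 1 EREG UMI in each follicle, in 8.33% and 2.17% of them, which gives 35.5 CPM (0.900 to 198) and 5.58 CPM (0.141 to 31.1) and is too few to set a background for EREG. Clusters 1 and 3 of AF75 stood out at 58.7 and 53.2 CPM with overlapping intervals, while cluster 0 had 17.6 CPM. In AF76 clusters 0, 1 and 3 had 17.2, 15.8 and 18.4 CPM, also with overlapping intervals. Cluster 1 thus held 46.3% of the EREG UMIs of AF75 and 13.1% of those of AF76. Cluster 4 was low in both, at 5.71 and 3.23 CPM, and cluster 2 of AF76 had 5 EREG UMIs in all.

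TGFA, transforming growth factor alpha, was the most evenly spread ligand. TGFA reached 100.6 CPM (98.7 to 102.5) in AF75 cells and 97.5 CPM (95.7 to 99.4) in AF76 cells, and its highest cluster was 1.48 and 1.39 times its lowest. A TGFA UMI was found in 55.8% and 57.9% of cells, and in 8.33% and 4.35% of the HBB-rich barcodes, at 35.5 CPM (0.900 to 198) in those of AF75, an interval that holds the level of its cells, and 11.2 CPM (1.35 to 40.3) in those of AF76. HBEGF, the heparin-binding ligand, had 14.8 CPM (14.1 to 15.5) in AF75 and 12.8 CPM (12.1 to 13.5) in AF76. It was highest in cluster 0 of AF75, at 18.4 CPM against 7.32 in cluster 1, whereas in AF76 clusters 0 and 1 had 13.2 and 15.3 CPM with overlapping intervals. Cluster 2 had 2.26 CPM of HBEGF. HBEGF was found in 10.1% and 9.21% of cells and in no HBB-rich barcode. BTC, betacellulin, was near the limit of detection: 34 UMIs in AF75 and 18 in AF76 made 0.306 and 0.165 CPM, and 0.320% and 0.204% of cells had 1 or more.

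EGFR, the receptor of all 5 ligands, was higher in AF75, at 33.9 CPM (32.8 to 35.0) against 24.1 CPM (23.1 to 24.99) in AF76. An EGFR UMI was found in 30.2% and 25.9% of cells and in none of the HBB-rich barcodes, with an exact upper bound of 20.6 CPM in those of AF76. The bound in AF75, 131 CPM, lay above the EGFR level of its cells and so separates nothing there. HBB made up 58.1% of the UMIs behind the AF76 bound. Without HBB in the total that bound would also exceed the EGFR level of all AF76 cells, so it separates nothing either. In AF75 it was highest in cluster 1, at 45.9 CPM, and was 29.8 CPM in cluster 0. In AF76 it was highest in cluster 2, at 49.2 CPM, and had like levels of 23.1 and 22.1 CPM in clusters 0 and 1. ERBB2, the partner receptor with no ligand of its own, had 6.63 CPM (6.16 to 7.12) in AF75 and 7.47 CPM (6.97 to 8.01) in AF76. Cluster 2 again stood apart, with 26.3 CPM (22.0 to 31.3) of ERBB2 beside 6.70 CPM in cluster 0 of AF76. In the HBB-rich barcodes of AF76, ERBB2 was found in 2.17%, against 9.51% of cells, at 11.2 CPM (1.35 to 40.3), an interval that holds the level of every cluster of AF76. Without the 9 immune barcodes cluster 2 kept 50.1 CPM of EGFR and 26.8 CPM of ERBB2. ERBB3, a receptor of neuregulins with little kinase activity, had 2.14 CPM (1.88 to 2.43) in AF75 cells and 2.69 CPM (2.39 to 3.02) in those of AF76, and no 2 neighbouring clusters in its order differed beyond their intervals.

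ADAM17, which cuts AREG, EREG, TGFA and HBEGF from the membrane, had 57.8 CPM (56.4 to 59.2) in AF75 and 56.8 CPM (55.4 to 58.3) in AF76. An ADAM17 UMI was found in 47.2% and 50.6% of cells and in no HBB-rich barcode. Its clusters ran from 48.6 CPM in cluster 1 to 77.4 CPM in the 23 cells of cluster 5 in AF75, 1.59 times, and from 33.3 CPM in the 25 cells of cluster 5 to 63.1 CPM in cluster 2 in AF76, 1.90 times. Levels of different genes are given here without a ranking, since 3' counts depend on each gene's annotated end.

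**Figure D1:**
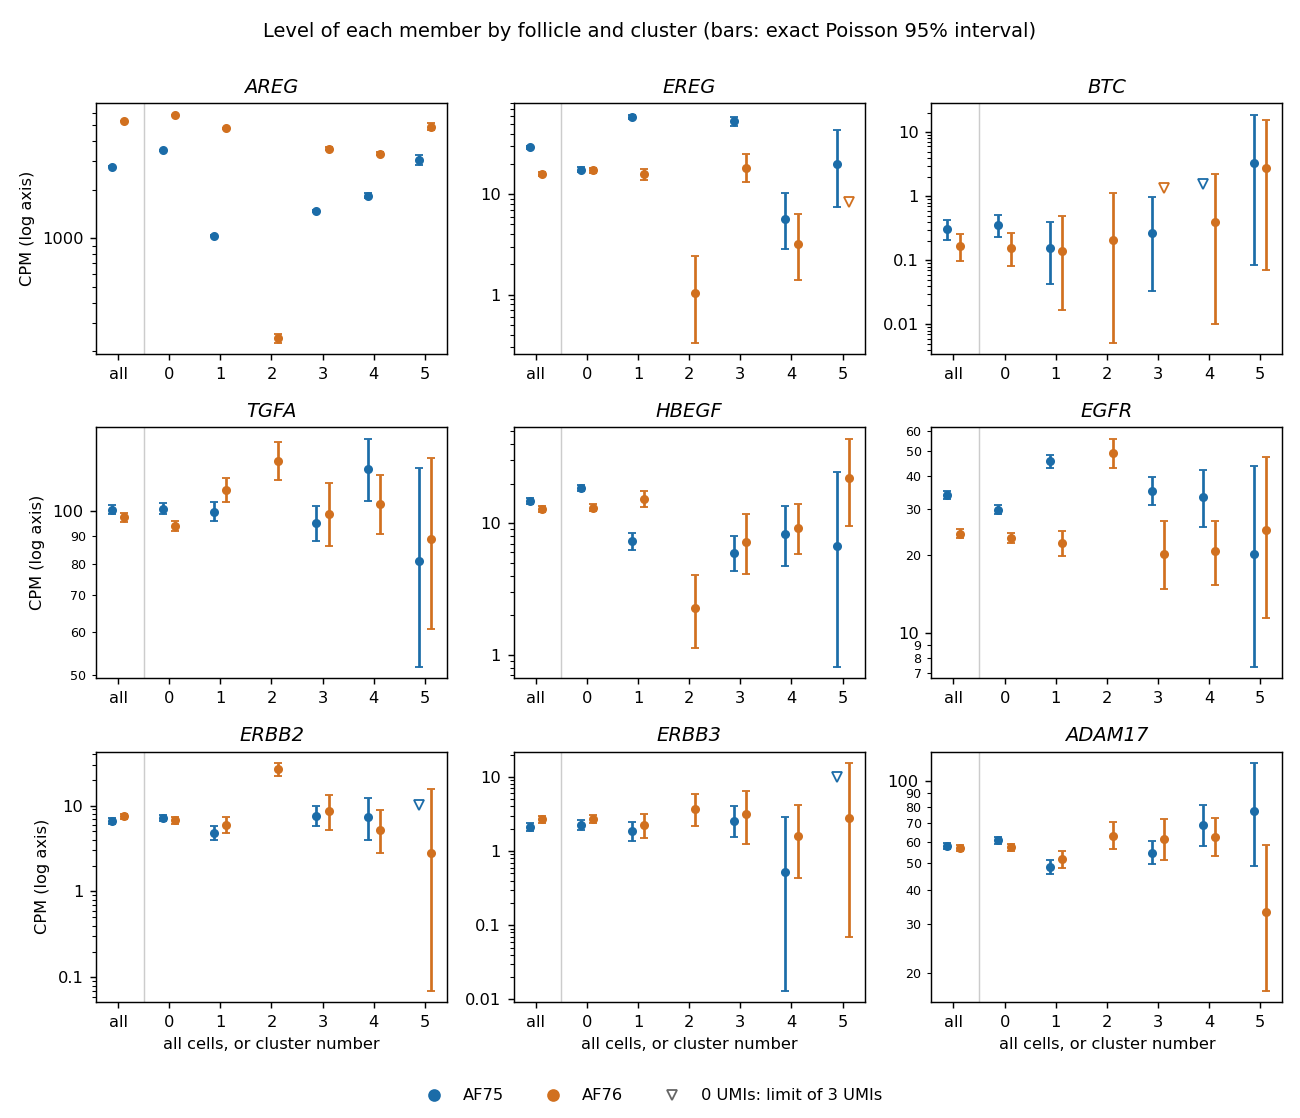
Level of each of the 9 genes in CPM (log axis) in all kept cells and in clusters 0 to 5, for AF75 and AF76, with exact Poisson intervals; triangles give the limit of 3 UMIs where none was counted, and cluster 2 of AF75 (2 cells) is left out. EREG was raised in clusters 1 and 3 of AF75 and EGFR in its cluster 1, while EGFR and ERBB2 were raised in cluster 2 of AF76, where AREG, EREG and HBEGF were low.

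The genes also differed in how their transcripts were shared out among cells. To remove depth, UMIs of each cell were drawn at random down to 5000, so that 19 shallower cells of AF75 and 105 of AF76 dropped out. AREG ran from 0 to 264 UMIs per thinned cell in AF75 (median 6) and from 0 to 297 in AF76 (median 14), and its variance was 31.0 and 37.7 times its mean. EREG UMIs sat in few cells: 140 cells of AF75, 1.498%, had 3 or more and held 48.8% of its UMIs, with a highest count of 16. In AF76 40 cells, 0.517%, held 29.1% of them, and the variance of EREG was 3.62 and 2.36 times its mean in the 2 follicles. EPGN had ratios of 3.69 and 4.33, near that of EREG in AF75 and above it in AF76. HBEGF (1.77 and 1.69) and TGFA (1.44 and 1.45) stood between. EGFR (1.09 and 1.12) and ADAM17 (1.04 and 1.05) were close to the value of 1 that counting alone gives. Because cells varied more than counting for the ligands, the counting intervals are too narrow for differences between groups of cells in these genes.

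Between the follicles, 2 of the 8 members with at least 200 UMIs in 1 follicle passed a ratio of 1.5 over all cells, beside 5.65% of the 10049 genes so counted (1.80% higher and 3.85% lower in AF76). AREG was 1.92 times higher in AF76 (1.91 to 1.93), and EREG was 1.83 times higher in AF75 (1.73 to 1.94). EGFR was 1.41 times higher in AF75 (1.34 to 1.48), just inside the limit. The other ratios of AF76 to AF75 were 0.970 for TGFA, 0.863 for HBEGF, 1.13 for ERBB2, 1.26 for ERBB3 and 0.984 for ADAM17. At the cluster shares of AF75, the levels of AF76 came to 5383 CPM of AREG, 16.7 of EREG and 22.7 of EGFR, close to their levels at its own shares. The reverse weighting, AF75 levels at the AF76 shares of all clusters but 2, gave 3085 CPM of AREG, 23.8 of EREG, 32.2 of EGFR and 6.82 of ERBB2, so that EREG came within 1.5-fold of the level of AF76. The excess of ERBB2 in AF76 was lost at the cluster shares of AF75, where the AF76 level came to 6.62 CPM.

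Within cluster 0 the follicles differed by less than 1.5-fold in 7 of 8 members. AREG alone passed it, with a ratio of 1.65 (1.65 to 1.66), beside 1.81% of 9467 genes. EREG had 17.6 and 17.2 CPM and a ratio of 0.979 (0.909 to 1.06), so its excess in AF75 lay outside cluster 0. HBEGF and EGFR were 1.40 (1.29 to 1.51) and 1.29 (1.21 to 1.37) times higher in AF75.

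Within cluster 1 the follicles parted. AREG, EREG and EGFR passed 1.5-fold, 3 of the 5 members with at least 200 UMIs in both follicles, beside 14.4% of 7573 genes with that many in either (6.43% higher and 7.92% lower in AF76). AREG had 1042 CPM in AF75 and 4809 in AF76, 4.62 times more (4.55 to 4.68). EREG was 3.71 times (3.23 to 4.28) and EGFR 2.08 times (1.83 to 2.36) higher in AF75. TGFA and ADAM17 differed by 1.10 and 1.07 times. HBEGF had 7.32 and 15.3 CPM, a ratio of 2.09 (1.71 to 2.55), but with 188 UMIs in AF75 it was counted only through its 220 in AF76. Cluster 3, the cycling cells, showed the same directions, with AREG 2.43 times higher in AF76, EREG 2.89 times and EGFR 1.74 times higher in AF75, beside 8.48% of 4764 genes past 1.5-fold. There EREG (391 and 41 UMIs) and EGFR (259 and 45) were counted only through AF75, where they were high. The marker VCAN moved with these values, at 5824 CPM in the AF75 cells and 1015 in the AF76 cells of cluster 1, and its part in them was not tested. The red blood cell markers, 5 of 8 in the gene list, moved as well in their sum, with 1.87 CPM (48 UMIs) in AF75 and 154 CPM (2220 UMIs) in AF76 in cluster 1, beside 31.5 CPM in cluster 0 of AF76, and their part was not tested either. Of the 5, ALAS2 and SLC4A1 were at 0 in cluster 1 of AF75. Where clusters were formed without integration, AREG and EREG alone passed 1.5-fold in cluster 1.

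**Figure D2:**
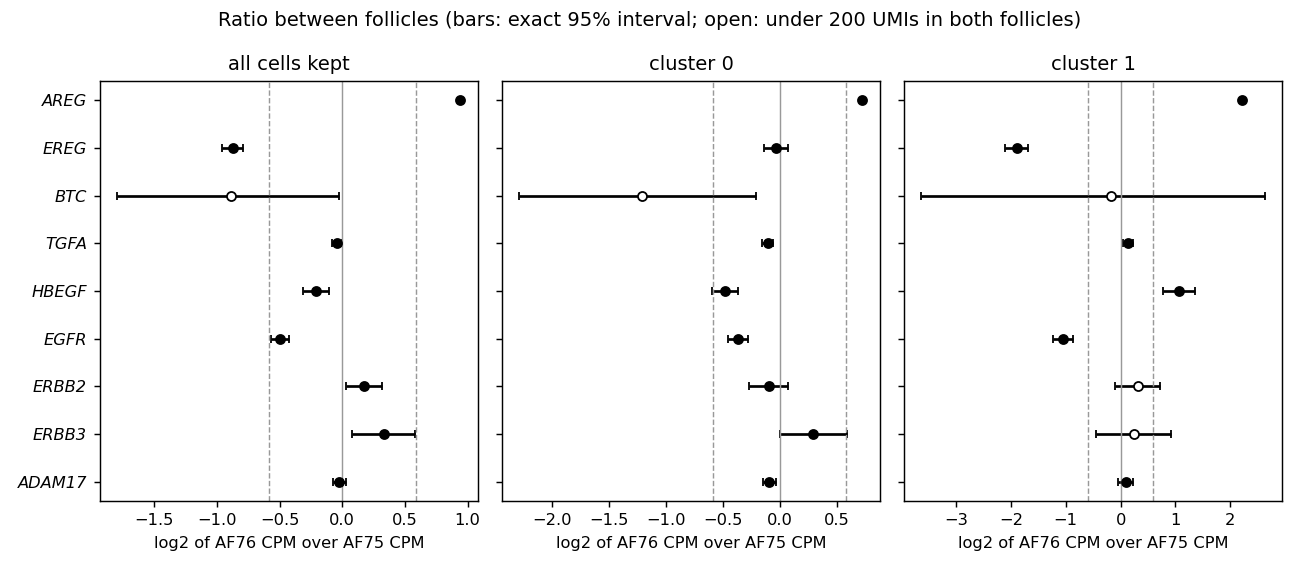
log2 ratio of CPM, AF76 to AF75, for each gene in all kept cells, cluster 0 and cluster 1, with exact intervals; dashed lines mark 1.5-fold, open points have under 200 UMIs in both follicles, and each panel has its own axis. AREG lies above 0 in every panel, while EREG and EGFR lie far below 0 in cluster 1 and EREG lies at 0 in cluster 0.

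Clusters 1 and 2 were also set against cluster 0 of their own follicle. In cluster 1 of AF75 4 of 7 members passed 1.5-fold, beside 20.6% of 9379 genes. AREG was 3.37 times and HBEGF 2.51 times lower than in cluster 0, and EREG 3.34 times and EGFR 1.54 times higher. Of these 4, HBEGF (1396 UMIs in cluster 0 and 188 in cluster 1) was counted only through cluster 0, where it was high. In cluster 1 of AF76 none of 8 did, beside 5.40% of 9390 genes. The ratio of cluster 1 to cluster 0 was 0.828 for AREG, 0.918 for EREG, 1.16 for HBEGF, 0.954 for EGFR and 0.891 for ERBB2. That none passed rested on the clustering. Without integration, the ratio in AF76 was 0.654 for AREG, 1.53 for EGFR and 1.70 for ERBB2, all past 1.5-fold. In cluster 2, 53.0% of 9416 genes passed 1.5-fold, so most genes differed there. EGFR was 2.12 times (1.85 to 2.43) and ERBB2 3.93 times (3.22 to 4.77) higher than in cluster 0. AREG, EREG and HBEGF were lower, but no size is given for them. The AREG level of cluster 2 was below that of the HBB-rich barcodes, and EREG and HBEGF had 5 and 11 UMIs there.

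Cells were also ordered by VCAN, the proteoglycan of the cumulus matrix, instead of by cluster. In AF75 AREG went from 4029 CPM in the 1408 thinned cells with no VCAN UMI, through 3747, 3446 and 2412, to 753 CPM in the 2166 cells with 15 or more. AREG was also lower with more VCAN in AF76, from 6260 CPM in 3028 cells to 2240 CPM in the 99 cells with 15 or more. EREG in AF75 stayed between 14.1 and 23.1 CPM up to 14 VCAN UMIs and was 67.4 CPM (62.6 to 72.5) above that. In AF76 EREG went the other way, at 18.1, 14.8, 13.6 and 8.604 CPM and then 0 UMIs in the 99 cells, with an exact upper bound of 7.45 CPM. EGFR was higher at each step in AF75, from 24.7 to 47.9 CPM, 1.94 times (1.63 to 2.32), and lay between 20.5 and 27.0 CPM in AF76. HBEGF in AF75 was highest at 5 to 14 VCAN UMIs, 22.3 CPM, and lowest above that, 9.05 CPM. TGFA lay between 87.5 and 112 CPM in AF75 and ADAM17 between 48.5 and 61.8 CPM. From no VCAN UMI to 15 or more, TGFA was 1.16 times higher (1.05 to 1.28) in AF75 and 1.47 times (1.13 to 1.88) in AF76. Cluster 2, low in AREG and EREG, made up 3.20% of the AF76 cells without VCAN and 15.4% of those with 5 to 14 UMIs, and its part in the AF76 series was not tested. Of the AF75 cells with 15 or more VCAN UMIs, 79.9% were in cluster 1.

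**Figure D3:**
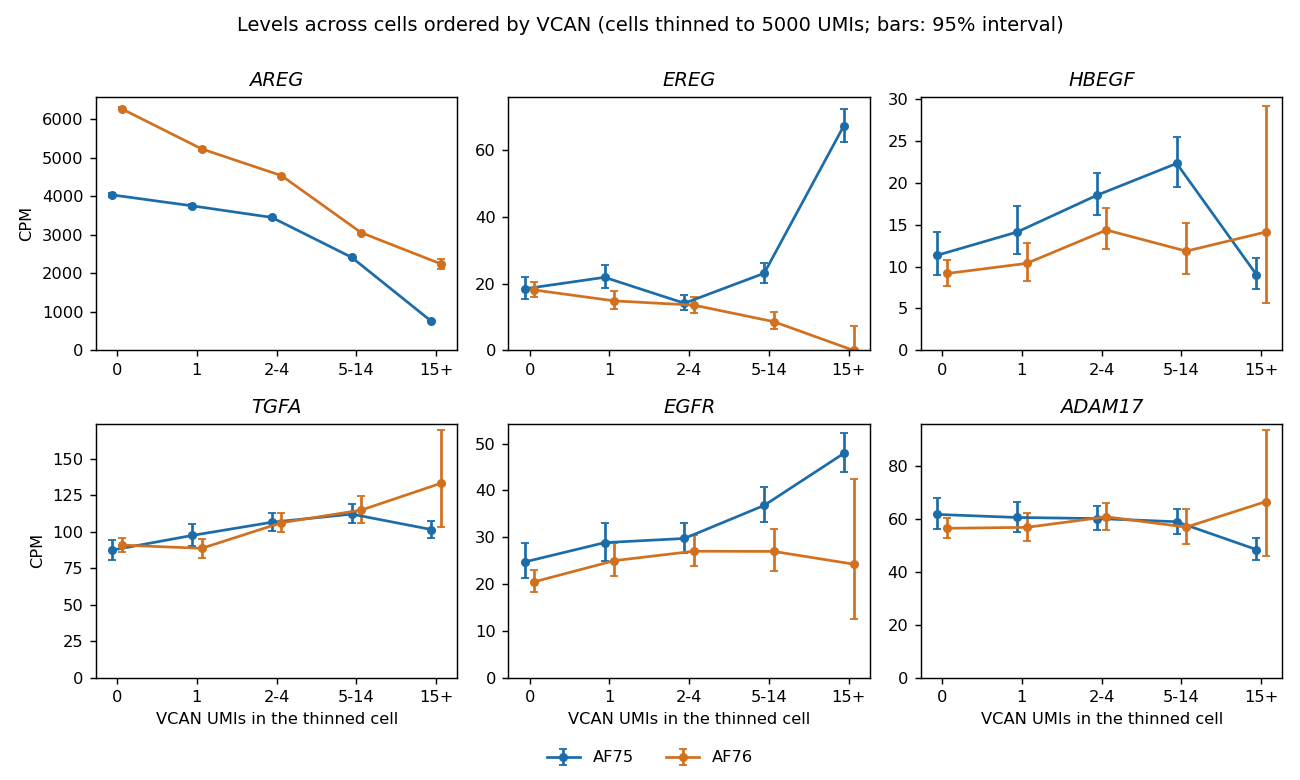
CPM of 6 members in thinned cells of all clusters, grouped by the VCAN UMIs of the cell, for AF75 and AF76, with 95% intervals. AREG was lower with more VCAN in both follicles, EREG and EGFR were highest in the VCAN-rich cells of AF75 only, and the VCAN-rich group of AF76 held 99 cells.

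Inside cluster 0, where few cells were rich in VCAN, the ligands sorted differently. Cells were cut into 5 groups of equal size by their own thinned AREG UMIs, from 0 to 3 UMIs in the lowest group of AF75 to 27 to 264 in the highest. EREG was higher at each step, in AF75 with 7.50, 10.8, 13.6, 21.4 and 35.6 CPM, in AF76 with 6.32, 8.37, 11.8, 18.3 and 37.1 CPM. The highest group had 4.75 (3.47 to 6.63) and 5.87 (4.13 to 8.56) times the EREG of the lowest. EPGN was higher in the highest group than in the lowest, at 11.7, 20.8, 23.8, 24.7 and 28.8 CPM in AF75 and at 17.1, 32.5, 40.1, 28.5 and 45.1 CPM in AF76, where the steps were not in order. AREG itself cut the groups, so its own rise across them is no finding.

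HBEGF and EGFR went the other way across the same groups. HBEGF went from 24.2 to 14.5 CPM in AF75, 1.67 times lower (1.28 to 2.18), and from 20.5 to 6.67 CPM in AF76, 3.07 times lower (2.13 to 4.53). EGFR went from 36.9 to 23.0 CPM, 1.61 times lower (1.30 to 1.99), and from 27.7 to 17.4 CPM, 1.59 times lower (1.23 to 2.05). TGFA and ADAM17 had ratios of 1.04 and 1.04 in AF75 and 1.01 and 1.11 in AF76, each with 1 inside its interval. VCAN was lower across the groups as well, from 968 to 517 CPM in AF75 and from 401 to 191 CPM in AF76, and its part in the values of HBEGF and EGFR was not tested. In cluster 1 of AF75 EREG was not higher with AREG: it had 78.7 CPM in the lowest group, whose 460 cells had no AREG UMI, and 61.9 CPM in the highest. In cluster 1 of AF76 it went from 4.10 to 28.7 CPM, over 4 and 28 UMIs.

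**Figure D4:**
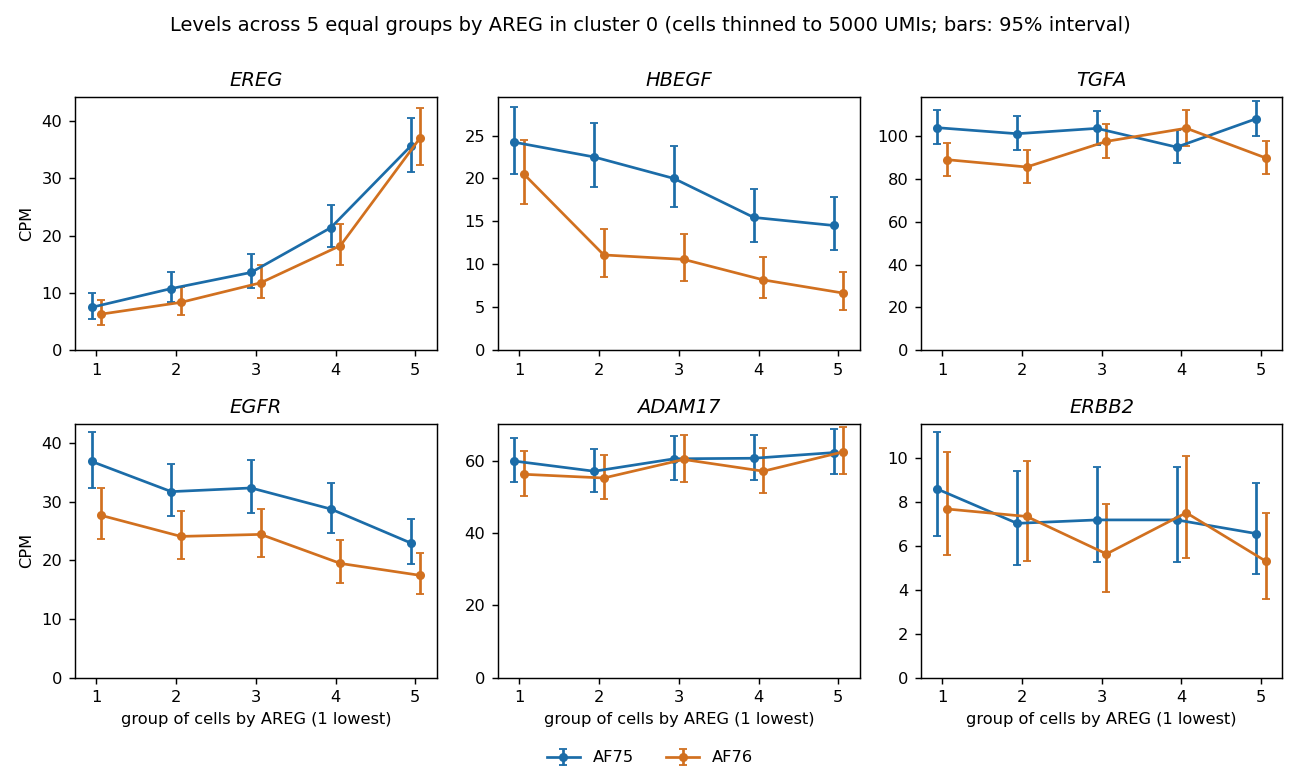
CPM of 6 members across 5 equal groups of cluster 0 cells ordered by AREG (group 1 is the lowest), for AF75 and AF76, in cells thinned to 5000 UMIs, with 95% intervals. EREG was higher, and HBEGF and EGFR lower, in the groups rich in AREG in both follicles, while the ratios of TGFA and ADAM17 had 1 inside their intervals.

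Detection of a ligand and of a receptor was also counted per cell. A UMI of any of the 5 ligands was found in 92.7% of thinned cells of AF75 and 96.1% of AF76, a UMI of any of the 3 receptors in 18.9% and 14.98%, and both in 17.2% and 14.1%. The ligand share was mostly AREG, found in 87.3% and 93.7% of thinned cells, and AREG UMIs were also in many HBB-rich barcodes, so these joint shares do not show that a cell made both. A ligand, a receptor and ADAM17 were found together in 4.07% and 3.75% of cells. A receptor UMI was found in 29.4% of the 592 thinned cells of cluster 2. The median depth of the HBB-rich barcodes was below 5000 UMIs, and they were not thinned.

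Apart from AREG, few pairs of members departed from the number of shared cells that their shares predict. In cluster 0, 16 pairs had at least 10 cells predicted in each follicle. The observed count over the predicted one ran from 0.825 to 1.35 in AF75, where all 16 intervals held 1, and from 0.660 to 1.44 in AF76, where 15 did. The exception was TGFA with HBEGF, seen together in 102 cells of AF76, 1.28 times the prediction (1.05 to 1.56), and in 176 cells of AF75, 1.16 times (0.997 to 1.35). The share of cells with EGFR did not differ beyond its interval between cells with and without EREG. In AF75 16.4% of 751 EREG-positive and 15.2% of 8592 EREG-negative cells had an EGFR UMI, a difference of 1.19 percentage points (-1.40 to 4.10). In AF76 the shares were 11.9% of 385 and 10.6% of 7353, a difference of 1.30 points (-1.66 to 4.99).

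**Figure D5:**
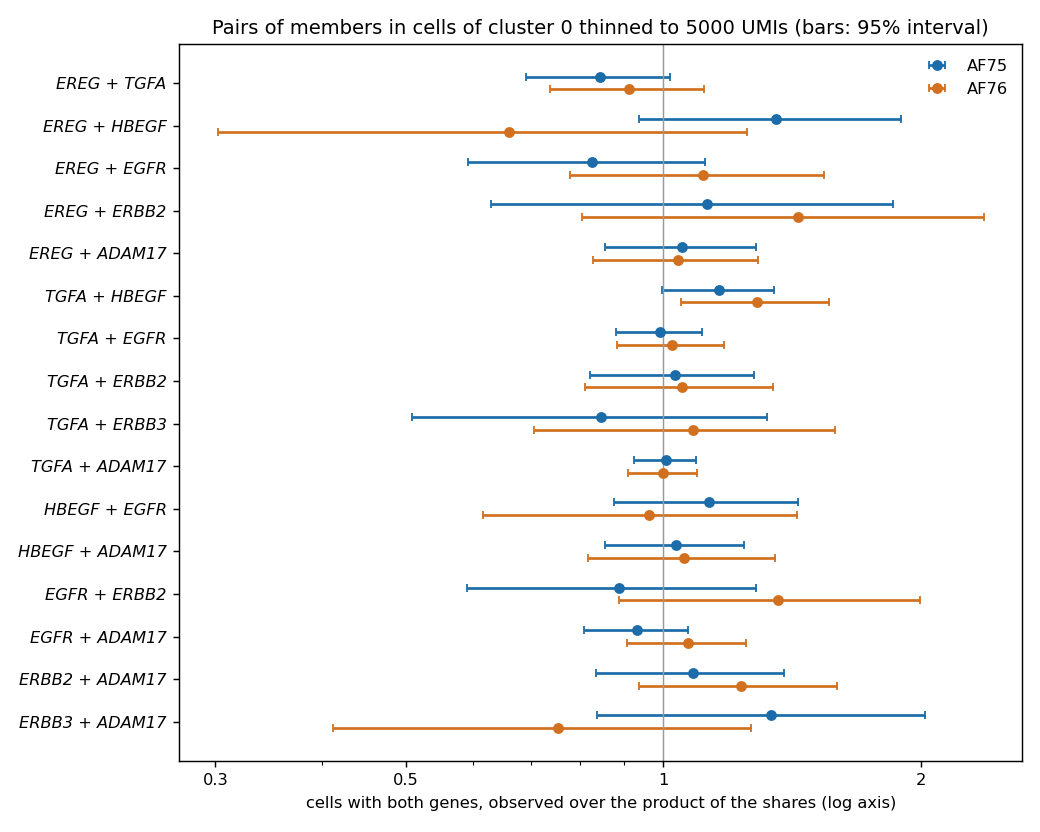
For 16 pairs of members, the number of cluster 0 cells with a UMI of both genes over the number predicted by the product of the shares (log axis), in thinned cells of AF75 and AF76, with 95% intervals. All intervals hold 1 except that of TGFA with HBEGF in AF76.

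Correlations across single cells were weak. Across 6400 thinned cells of cluster 0 in AF75 and 5854 in AF76, Pearson's r of log2(UMIs + 1) between AREG and EREG was 0.122 and 0.135. Between AREG and HBEGF it was -0.055 and -0.067, and between AREG and EGFR -0.058 and -0.050. These cells share a library within each follicle, and most have no UMI of the rarer gene. Of 5243 genes with a mean of at least 0.1 thinned UMIs, AREG was the gene most like EREG. The genes most like AREG were SDC4 (0.192 and 0.206), the progesterone receptor gene PGR (0.178 and 0.204), CCNG1 (0.181 and 0.167), UAP1 and PDK4. Those most like EGFR were PTHLH, COL4A2, SLC6A4, SGMS2 and DST, with r between 0.052 and 0.088.

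Other genes of the pathway were compared over all cells beside the 1.80% higher and 3.85% lower in AF76 among all genes counted. Of 7 further ligands and receptors of the family, 2 had enough UMIs: EPGN was 1.60 times higher in AF76, at 18.3 and 29.3 CPM, and NRG4 lower, at 1.85 and 1.06 CPM. NRG4 was counted only through AF75, where it was high. Of 12 genes of shedding and trafficking TIMP3, an inhibitor of ADAM17, alone passed 1.5-fold, lower in AF76 at 16.9 and 8.17 CPM. None of 20 adaptor and MAPK cascade genes passed, and none of 13 feedback inhibitors. Of 8 early MAPK targets FOS was higher in AF76, at 61.9 and 108 CPM. Of 11 genes of cumulus expansion and ovulation, 5 were lower in AF76 and none higher: PTGS2, TNFAIP6, SHAS2, PTX3 and VCAN, the last at 2054 and 426 CPM. The median log2 ratio of the expansion genes was -0.30, and that of all genes counted was 0.00.

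In cluster 1, where 6.43% of all genes counted were higher and 7.92% lower in AF76, the feedback inhibitors split, with DUSP6 (14.6 to 34.7 CPM), DUSP4 and PTPRJ of 10 higher in AF76 and DUSP5 lower. EGR1, an early target, was lower there, at 138 and 67.4 CPM, and FOSL1 too, while FOS was higher. Of 10 expansion genes tested there, 4 were lower in AF76 and CTSL, a cathepsin gene, was higher. The gonadotropin receptor LHCGR, through which luteinizing hormone acts, had 9.01 CPM in AF75 and 11.2 CPM in AF76, a difference below 1.5-fold.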

How the data were processed

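Somatic cells of 2 follicles of 1 pig were profiled, 1 library each. The authors aligned, filtered and counted the reads with CellRanger on Sscrofa11.1, and the deposited values are UMI counts per gene and barcode, not normalized. The lowest total of a deposited barcode was 500 UMIs in each follicle, so shallower barcodes are absent. AF75 had 125409747 and AF76 127414267 UMIs. The list gives no symbol for 7356 genes, of which 1042 were named by identifier from a table of the same assembly. UMIs were summed over kept cells and given as CPM with exact Poisson intervals; those of shares are Clopper-Pearson intervals, those of ratios exact conditional intervals and those of differences of shares Newcombe intervals. A count of 0 was replaced by 3 in the 1.5-fold calls between follicles and in the shares of all genes past 1.5-fold. The ratios printed used the counts as they were. Clusters came from anchor integration in Seurat 5.3.0 (R 4.3.3) with 2000 variable genes, 94 genes of the lists studied kept out, 40 components and resolution 0.2, the lowest that gave 6 clusters. Doublets were kept in the results given and left out (the 6.9% with the highest score) as an alternative. Immune barcodes had at least 10 UMIs over 8 immune markers and at least 3 of them detected; that rule and the HBB limit were set after values were seen. The ranges of VCAN and the groups by AREG were also chosen then. Other steps used Python 3.11.15 with numpy 2.4.6, scipy 1.17.1 and pandas 2.3.3, and the ratios and thinning were tested on simulated data. The simulated counts held counting error only, so they do not test the intervals of genes that vary more among cells. Sequences and positions are RefSeq's for Sscrofa11.1. The 9 members are all named. Other genes are those past 1.5-fold or with the most UMIs of each list, and for AREG, EREG and EGFR the 5 genes with the highest smaller r of the follicles. The members and lists were chosen with earlier results of these data known. The follicles are not replicates of a condition.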

Additional observations from a re-analysis of the deposited data

How the results depend on the processing

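No paired analysis was possible because each follicle is 1 library and no test was made. The log2 ratio of AREG over all cells, 0.94, became 0.96 without doublets, 0.90 with 500 to 6000 genes per barcode, 0.93 with under 10% mitochondrial UMIs, 0.89 over all deposited barcodes, 0.96 without mitochondrial and ribosomal protein genes in the library size, 0.89 as a mean of per-cell CPM and 0.91 with cells thinned. It became 1.00 without cluster 2 and 0.96 at the cluster shares of AF75, where that of EGFR, -0.50, became -0.58. With cells thinned, 2 members in place of 1 (HBEGF added) passed 1.5-fold in cluster 0. Among members with at least 200 UMIs in either follicle, which adds HBEGF, 4 passed in cluster 1, and 2 did without integration. The difference in EGFR share by EREG became -2.52 points in cluster 0 alone in AF75 and -2.59 points with cells thinned to 3000 UMIs in AF76, both with 0 inside the interval. With under 10% mitochondrial UMIs it was -0.268 and -1.01 points, so its sign was not stable. ERBB2 over all cells turned from 0.17 to -0.0075 without cluster 2 and to -0.0011 at the shares of AF75, and, between clusters 1 and 0 of AF76 without integration, TGFA turned from 0.22 to -0.042, ADAM17 from -0.14 to 0.057, EGFR from -0.069 to 0.61, ERBB2 from -0.17 to 0.77, HBEGF from 0.21 to -0.22 and EREG from -0.12 to 0.059, while AREG went from -0.27 to -0.61. With 20 components HBEGF became -0.30 and ERBB2 0.084 there. The causes were not tested. The alternatives without cluster 2 and at the shares of AF75 were chosen after seeing the data. All 40 alternatives of the groups by AREG kept their direction and stayed inside the first interval. Depth limits BTC and ERBB3 most, and 1 library per follicle leaves follicle, library and cluster 2 impossible to tell apart.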
